A study of Ovis aries with 9 samples.

Results

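The genes described here are 10 markers of blood vessel cells, measured in the hypothalamus of sheep passing through puberty. CLDN5, PECAM1, VWF, FLT1, CDH5, TEK and SLC2A1 mark the endothelial cells that line a vessel, and PDGFRB, RGS5 and ACTA2 mark the mural cells wrapped around it. They were chosen by symbol, as textbook markers of these cells. They are 10 of the 21284 genes with RefSeq protein-coding transcripts in the deposited table, and 35 of its 76684 protein-coding transcripts (115108 transcripts in all). The level of a gene is the sum of its transcripts in FPKM, a fragment count scaled to transcript length and to the size of the library, so levels of different genes are compared per length.

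Hypothalami of 9 healthy Dolang ewes were sequenced, with 1 library per animal and 3 animals per stage. The ewes at prepuberty (120 to 121 days old) were calm and refused the ram. The ewes at puberty (130 to 131 days) were sampled when they first showed restlessness, acceptance of mounting and vulval mucus, and the ewes at postpuberty (150 to 151 days) were calm again. All 9 were kept under the same management, and the stages differ in age as well as in reproductive state, so the contributions of age and of puberty cannot be told apart. Libraries are named by stage and replicate number, and the numbers do not pair animals across stages.

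Brain capillaries differ from those of most organs. Their endothelial cells are sealed to each other by tight junctions, restrict vesicle traffic and carry transporters that let selected nutrients through, which together form the blood-brain barrier. Pericytes, the mural cells of capillaries, are embedded in the capillary wall and are kept there by platelet-derived growth factor signalling, while smooth muscle cells, the mural cells of arterioles and arteries, contract to set blood flow. The hypothalamus also contains windowed (fenestrated) capillaries at the median eminence, where releasing hormones enter the portal blood.

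Several libraries stood apart before any vessel gene was considered. In Puberty 2 the FPKM values summed to 599726 over all transcripts, against 359588 to 398109 in the other 8 libraries, and 10970 genes reached 0.5 FPKM, against 12985 to 13687. In Puberty 2, 62.7% of the 2073 genes spanning under 5000 bases of the genome were above their median of the other 8 libraries, against 11.5% of the 4511 genes spanning 50000 bases or more. Stage comparisons are therefore given with all 9 libraries and with the 8 others, and the order of levels and the correlations with marker lists and other genes over the 8 others alone. Among the 8, the sum over 8 neuron genes was lowest in Postpuberty 1 (437 FPKM) and Prepuberty 1 (640 FPKM). The other 6 had 1200 to 1791 FPKM. Puberty 3 held 7594 FPKM of the choroid plexus gene TTR, against 9.07 to 723 in the rest of the 8. Markers of the hypothalamus were uneven. NKX2-1 and SIM1 reached at most 0.26 and 0.11 FPKM in the 8 libraries and GNRH1 was listed at 0 in all 9, while in the 8 libraries CRH ranged from 0.392 to 118 FPKM, TRH from 0.824 to 36.8 and POMC from 2.09 to 17.4 (22.4 in Puberty 2).

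The barrier junction gene had the highest level of the set. CLDN5 encodes claudin-5, the main sealing protein of brain endothelial tight junctions, and its single transcript lies at chr17:72766725-72767985 (ARS-UI_Ramb_v3.0, as are all positions here), a gene of only 1261 bases. It was present at 104, 54.7 and 84.1 FPKM in Prepuberty 1 to 3, at 60.6, 624 and 86.5 in Puberty 1 to 3, and at 114, 64.2 and 84.5 in Postpuberty 1 to 3. Puberty 2 was 7.41-fold above the median of the other libraries (84.3 FPKM), and the other libraries of the 3 stages overlapped. In bulk tissue, a lower value cannot be told apart between fewer cells of a type and less RNA per cell.

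SLC2A1 encodes GLUT1, the transporter that carries glucose across the barrier, and its single transcript lies at chr1:17367786-17401820. Its levels were 45.8, 31.1 and 48.0 FPKM at prepuberty, 33.8, 27.3 and 36.4 at puberty and 41.0, 35.5 and 33.0 at postpuberty. The lowest value was that of Puberty 2, and this was the endothelial gene with the narrowest spread, with 1.55-fold between the highest and lowest of the 8 other libraries. GLUT1 is also made by astrocytes, so this marker is not limited to vessels.

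The junction and adhesion genes lay lower. PECAM1 encodes CD31, the adhesion molecule at contacts between endothelial cells (chr11:48252140-48351567, 8 transcripts), and measured 16.7, 6.16 and 10.3 FPKM at prepuberty, 7.30, 2.94 and 9.83 at puberty, and 11.3, 7.68 and 10.8 at postpuberty. CDH5 encodes VE-cadherin, the cadherin of endothelial adherens junctions (chr14:33698838-33736330, 2 transcripts of which 1 was listed at 0 throughout), and measured 10.4, 5.28 and 7.22 FPKM at prepuberty, 6.63, 1.91 and 7.46 at puberty, and 10.7, 6.01 and 7.50 at postpuberty. For both genes Puberty 2 was the lowest library, 3.43-fold and 3.85-fold under the median of the others, and the remaining libraries of all stages overlapped.

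VWF encodes von Willebrand factor, the clotting protein that endothelial cells store and release (chr3:210052637-210176248, 1 transcript). It was present at 18.1, 6.07 and 10.5 FPKM at prepuberty, 9.63, 20.0 and 11.8 at puberty, and 14.0, 8.07 and 12.4 at postpuberty. Together with CLDN5 it was 1 of the 2 members whose highest library was Puberty 2, by 1.79-fold over the median of the others. It spread most among the endothelial genes in the other 8 libraries, 2.98-fold from Prepuberty 2 to Prepuberty 1.

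The endothelial receptor kinases FLT1 and TEK completed the endothelial group. FLT1 encodes VEGF receptor 1, which binds VEGFA, VEGFB and PGF (chr10:31895803-32104643), and measured 13.8, 8.98 and 16.5 FPKM at prepuberty, 11.5, 3.80 and 10.3 at puberty, and 9.59, 10.5 and 9.27 at postpuberty. TEK encodes TIE2, the angiopoietin receptor (chr2:95836542-95935595, 6 transcripts), and measured 7.67, 3.90 and 4.58 FPKM at prepuberty, 4.14, 1.67 and 5.79 at puberty, and 6.52, 4.55 and 4.48 at postpuberty. Both were 2.73-fold under the median of the other libraries in Puberty 2. Outside Puberty 2, FLT1 was highest in Prepuberty 3 and TEK in Prepuberty 1, and the stages overlapped for both.

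The FLT1 total was carried by different transcript models in different libraries. Of its 6 transcripts, 2 were listed at 0 everywhere and 2 never exceeded 0.456 FPKM. XM_015098156.4 was present at 13.8, 4.53 and 0 FPKM at prepuberty, 11.2, 3.59 and 10.2 at puberty, and 9.52, 0 and 1.44 at postpuberty. XM_060394470.1 was present at 0, 4.44 and 15.6 FPKM at prepuberty, 0.0351, 0 and 0.00114 at puberty, and 0.0418, 10.2 and 7.79 at postpuberty. XM_015098156.4 thus held 94.3% to 99.2% of FLT1 in the 3 puberty libraries and between 0% and 99.9% at prepuberty and between 0% and 99.2% at postpuberty. Only Prepuberty 2 divided FLT1 nearly evenly, with 50.4% and 49.5%. How much of this comes from the assignment of reads between overlapping transcript models was not tested, and the sum over transcripts is used for FLT1 in the comparisons.

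**Figure D1:**
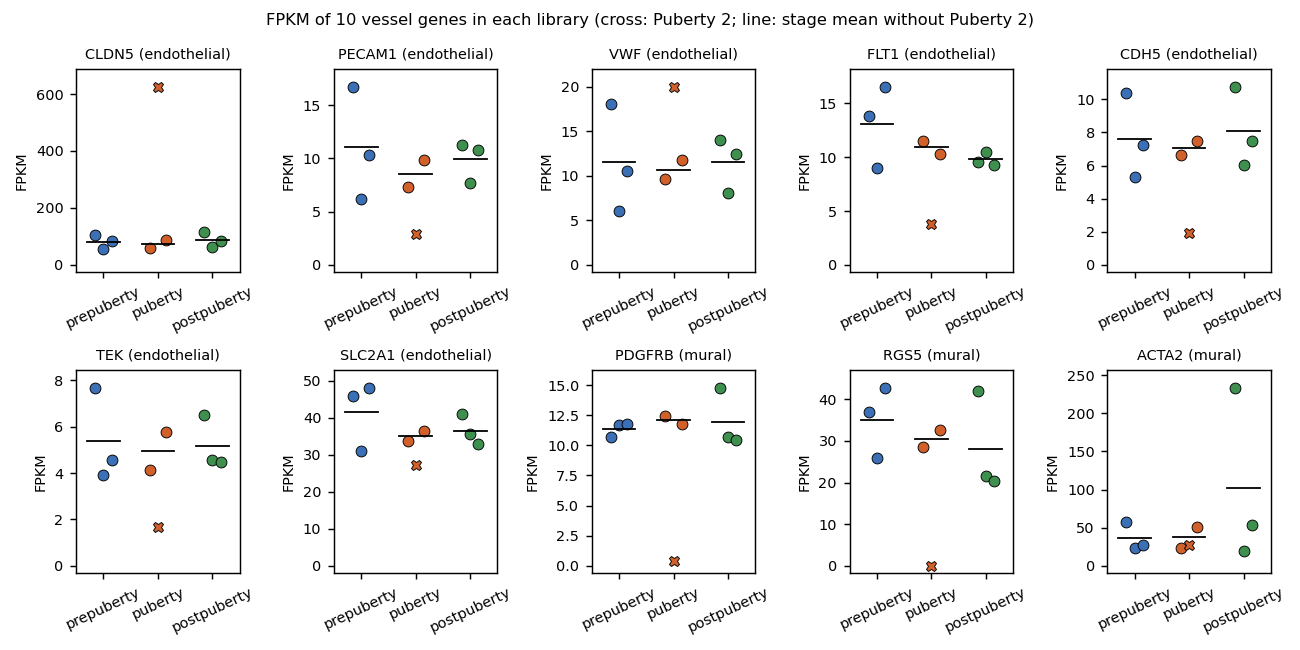
Level of each of the 10 vessel genes (vertical axis, FPKM, a separate linear scale per gene) by stage (horizontal axis). Each point is 1 library, the cross is Puberty 2, and the line is the stage mean without Puberty 2. Puberty 2 is the highest library for CLDN5 (624 FPKM) and VWF (20.0 FPKM) and the lowest for 7 genes, and Postpuberty 1 is the highest for ACTA2 (233 FPKM).

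The mural genes were each distinct. RGS5 encodes a regulator of G-protein signalling that is enriched in brain pericytes (chr1:114799592-114856775, 1 transcript), and measured 36.9, 25.8 and 42.7 FPKM at prepuberty, 28.6, 0 and 32.5 at puberty, and 42.1, 21.5 and 20.4 at postpuberty. PDGFRB encodes the receptor for platelet-derived growth factor B through which endothelial cells recruit pericytes (chr5:59236254-59273883, 8 transcripts), and measured 10.7, 11.7 and 11.7 FPKM at prepuberty, 12.5, 0.383 and 11.8 at puberty, and 14.7, 10.7 and 10.4 at postpuberty. Outside Puberty 2, PDGFRB was the steadiest of the 10 genes, with a coefficient of variation of 11.8% and 1.42-fold between its extremes, a spread narrower than that of all but 14.8% of the 12281 genes with a mean of at least 1 FPKM. In Puberty 2, RGS5 was listed at 0 and PDGFRB was 30.5-fold under the median of the other libraries, the lowest positions of any member. Of the 14238 genes kept for testing, 1058 were listed at 0 in that library.

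ACTA2 encodes smooth muscle alpha-actin, the contractile actin of arteriolar and arterial mural cells (chr22:10455006-10472320, 1 transcript). Its levels were 56.9, 23.8 and 27.6 FPKM at prepuberty, 23.3, 26.7 and 51.1 at puberty, and 233, 19.6 and 53.4 at postpuberty. Postpuberty 1 lay far above every other library, the next being Prepuberty 1, and the postpuberty libraries included both the highest and the lowest value. The spread over the 8 libraries, 11.9-fold, exceeded that of all but 5.83% of genes with a mean of at least 1 FPKM, and in Puberty 2 ACTA2 was 1.47-fold under the median of the others, within their range.

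Other smooth muscle genes were highest in the same library as ACTA2. All 14 genes of a smooth muscle list had their highest value of the 8 libraries in Postpuberty 1, which was the highest library for 19.6% of the 12281 genes. TAGLN, an actin-binding protein of smooth muscle, reached 225 FPKM there, and MYL9, a myosin light chain, reached 109 FPKM. The 14 genes summed to 671 FPKM in Postpuberty 1, and otherwise to 76.5 to 229 at prepuberty, 89.1 to 177 at puberty and 78.6 to 151 at postpuberty. Across the 8 libraries the median r with ACTA2 was 0.97 over the 13 of them with a mean of at least 1 FPKM. For all genes it was 0.15. These values are a description, and the part of tissue content in them was not tested.

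Fibroblast and meningeal genes were high in the same libraries as ACTA2. The 10 genes of that list, among them MGP (matrix Gla protein) and COL1A2 (a collagen I chain), summed to 314 FPKM in Postpuberty 1, 244 in Prepuberty 1, 228 in Puberty 3 and 134 in Postpuberty 3, and to 47.6 to 50.9 in the 4 other libraries besides Puberty 2 (67.9). ACTA2 was at 51.1 FPKM or more in exactly those 4 libraries and at 27.6 or less in the rest. The ACTA2 to RGS5 ratio was 5.54 in Postpuberty 1 and 0.646 to 2.62 in the other libraries where RGS5 was above 0. The part of large vessels or of meninges in the dissected tissue in these values was not tested.

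**Figure D2:**
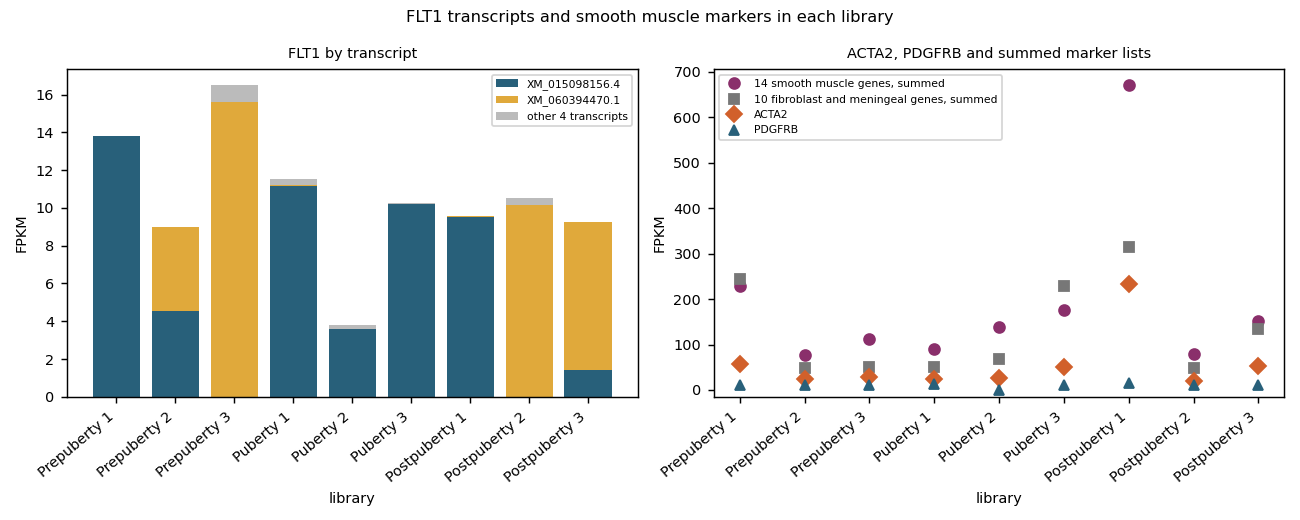
The bars on the left show the FPKM of FLT1 in each library, stacked by transcript, and the points on the right show the FPKM of ACTA2 and PDGFRB and the summed FPKM of 14 smooth muscle and 10 fibroblast and meningeal genes. The leading FLT1 transcript switches between libraries of 1 stage, and Postpuberty 1 holds the highest smooth muscle sum (671 FPKM) and the highest ACTA2 (233 FPKM).

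By median over the 8 libraries, the order of levels was CLDN5 (84.3 FPKM), ACTA2 (39.4), SLC2A1 (36.0), RGS5 (30.6), PDGFRB (11.7), VWF (11.1), FLT1 (10.4), PECAM1 (10.1), CDH5 (7.34) and TEK (4.56). Among neighbours in this order, the ranges over the 8 libraries were separate only for RGS5 and PDGFRB, so most neighbours did not differ beyond their spread. Within libraries the order was firmer in places. CDH5 exceeded TEK in 9 of 9 libraries and PECAM1 exceeded CDH5 in 9 of 9, while ACTA2 exceeded SLC2A1 in only 4 of 9. Measured against the 14238 genes kept for testing, mean levels over all 9 libraries, which include the 624 FPKM of CLDN5 in Puberty 2, ran from the 98.1 percentile (CLDN5) to the 50.6 percentile (TEK).

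The endothelial genes shared their lowest library but not their highest. Outside Puberty 2, all 7 endothelial genes had their lowest value in Prepuberty 2, the lowest library for 16.7% of the 12281 genes with a mean of at least 1 FPKM. Their highest value was in Prepuberty 1 for 3 genes (PECAM1, VWF and TEK), in Prepuberty 3 for 2 (FLT1 and SLC2A1) and in Postpuberty 1 for 2 (CLDN5 and CDH5). The 3 prepuberty animals thus held both extremes of PECAM1, VWF, TEK, FLT1 and SLC2A1, so that the spread within that stage covered the whole range of the 8 libraries.

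In Puberty 2, 5 of the 7 endothelial genes and 2 of the 3 mural genes were below all 8 other libraries, and CLDN5 and VWF were above all 8. Over the 14238 genes kept, 51.9% were below and 20.2% above all 8. The median endothelial gene was lower in Puberty 2 by a log2 difference of -1.06 and the median mural gene by -3.20, against -0.49 over all genes. CLDN5, the member with the shortest gene, was highest there, while FLT1, the member with the longest (208841 bases), was below all others, yet VWF, at 123612 bases, was above all others. The part of the library's shift by gene span in these values was not tested.

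The stage comparison asked whether vessel genes differed between prepuberty, puberty and postpuberty. Across 14238 genes, limma on log2(FPKM + 1) called 0 of the 10, where a call required an adjusted p below 0.05 and a log2 difference of 1 or more in either direction. The share of all genes called was 0% in each of the 3 comparisons, with all 9 libraries and without Puberty 2, and at an unadjusted p below 0.05 the members numbered 0 as well. That unadjusted share over all genes was 1.82% between prepuberty and puberty, 2.14% between puberty and postpuberty and 0.815% between prepuberty and postpuberty, and without Puberty 2 it was 1.66%, 2.11% and 1.87%. The members' smallest adjusted p in limma was 0.838, 0.780 and 1 in these comparisons.

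Between prepuberty and puberty (prepuberty minus puberty, so positive is higher at prepuberty), the largest estimates belonged to the genes that were extreme in Puberty 2. RGS5 had a log2 difference of 1.83 ± 1.15 (SE), PDGFRB one of 0.99 ± 0.75 and CLDN5 one of -0.92 ± 0.76. Without Puberty 2 these became 0.17 ± 0.34, -0.09 ± 0.18 and 0.11 ± 0.34, so PDGFRB and CLDN5 changed sign. The 8-library interval was narrowest for PDGFRB, -0.51 to 0.33 (95%), and widest for ACTA2, -2.24 to 2.16.

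The median log2 difference of the 7 endothelial genes in this comparison was 0.45 and that of the 3 mural genes 0.99, beside 0.14 over all genes. Without Puberty 2 the medians were 0.11, -0.04 and -0.02. Without that library the estimates of PECAM1 (0.67 to 0.25), FLT1 (0.64 to 0.21) and SLC2A1 (0.33 to 0.22) kept their sign. So did those of CDH5 (0.55 to 0.06), TEK (0.45 to 0.07), VWF (-0.29 to -0.0077) and RGS5. ACTA2 turned from 0.08 to -0.04. All these intervals included 0.

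Between puberty and postpuberty the picture was reversed in sign and rested on the same library. RGS5 had a log2 difference of -1.46 ± 1.15 with 9 libraries and 0.20 ± 0.34 with 8, and PDGFRB one of -1.05 ± 0.75 and 0.03 ± 0.18. The medians were -0.30 for the endothelial and -1.05 for the mural genes, beside -0.19 over all genes, and -0.07, 0.03 and -0.03 without Puberty 2. ACTA2 had -0.97 ± 0.78 and -0.85 ± 0.94, a difference carried by Postpuberty 1.

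Between prepuberty and postpuberty, which Puberty 2 does not enter except through the shared estimate of spread, the estimates ran from -0.89 (ACTA2) to 0.37 (RGS5). The medians were 0.02 for the endothelial and -0.06 for the mural genes, beside -0.05 over all genes. The estimate for FLT1 was 0.35, with a 95% interval of -0.16 to 0.85 when Puberty 2 was left out of the fit. In that fit the intervals of the 7 endothelial genes lay within -0.94 to 0.85 and that of PDGFRB was -0.43 to 0.32, so a difference of the size of the threshold was outside them, whereas those of RGS5 (-0.35 to 1.083) and ACTA2 (-2.86 to 1.077) reached it. Including Puberty 2 widened most intervals, and those of CLDN5, PECAM1, VWF, FLT1, CDH5, PDGFRB, RGS5 and ACTA2 reached past the threshold.

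**Figure D3:**
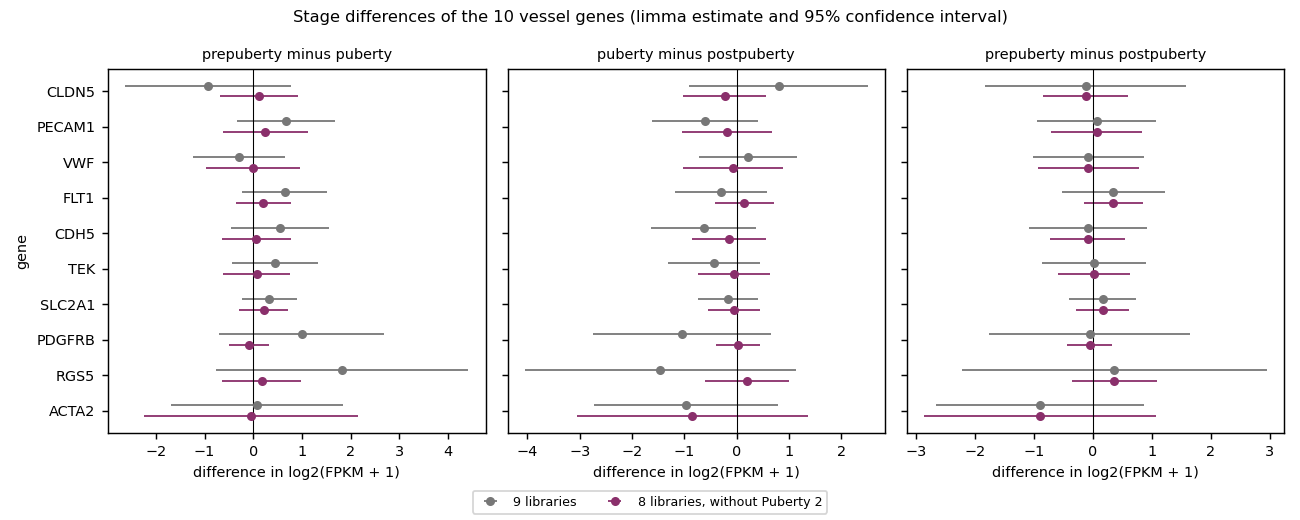
Difference in log2(FPKM + 1) between stages for each gene (horizontal axis, first stage minus second), as limma estimates with 95% confidence intervals, from all 9 libraries (grey) and from 8 libraries without Puberty 2 (purple). All intervals include 0, and those of RGS5, PDGFRB and CLDN5 narrow most when Puberty 2 is left out.

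The libraries themselves gave the same picture. With all 9, 0 of the 10 genes had completely separate values in any pair of stages, against 5.16%, 7.32% and 4.57% of all genes in the 3 comparisons. With 3 animals per stage, the smallest two-sided p of an exact permutation test is 0.1. Without Puberty 2, 1 member separated prepuberty from puberty, PDGFRB, with 12.5 and 11.8 FPKM at puberty against 10.7 to 11.7 at prepuberty, a gap of less than 0.1 FPKM between the nearest libraries. Of all genes, 11.7% separated in that comparison. No member separated puberty from postpuberty without Puberty 2, where 14% of all genes did.

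The second question was how far endothelial and mural genes moved together across animals. Without Puberty 2 the 7 endothelial genes had a positive r in all 21 of their pairs, with a median r of 0.82, against 0.49 in the 21 endothelial-mural pairs. By rho over the 8 libraries the medians were 0.79 and 0.43. Without the 2 libraries farthest from the median of each pair's first gene the medians of r were 0.47 and 0.50. Leaving out the extremes of a gene narrows its range, so these values cannot show what the difference rests on. With all 9 libraries 13 of the 21 endothelial pairs were positive and the median was 0.77. Over the 8 libraries, exact permutation tests (all pairings, two-sided) with Benjamini-Hochberg adjustment over all 45 pairs gave an adjusted p below 0.05 for 11 of the 21 endothelial pairs, 2 of the 21 endothelial-mural pairs and 0 of the 3 mural pairs by r, and for 9, 5 and 0 by rho. When Puberty 2 was included these counts were 8, 5 and 1 by r and 6, 2 and 0 by rho. The share of passing pairs among other genes was not computed, so whether the counts are particular to vessel genes was not tested. Over the 8 libraries 26.0% of all genes with a mean of at least 1 FPKM had r of at least 0.5 with the endothelial mean. After stage means were subtracted (8 libraries) the median r was 0.83, 0.53 and 0.75 in the 3 kinds of pair.

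The highest r over the 8 libraries lay among CLDN5, PECAM1, VWF, CDH5 and TEK. PECAM1 and VWF had r = 0.954 and rho = 0.952 over the 8 libraries (exact permutation p = 0.000471, adjusted p = 0.00818 for r), and r = 0.867 without the 2 libraries farthest from the PECAM1 median. With all 9 libraries this pair had r = 0.061 and rho = 0.367 (exact permutation adjusted p = 0.893 for r). CLDN5 and CDH5 had r = 0.948 and rho = 0.952 (exact permutation p = 0.000347, adjusted p = 0.00818 for r), and 0.967 without the 2 farthest from the CLDN5 median, but r = -0.663 and rho = 0.367 with all 9 (exact permutation adjusted p = 0.192 for r). Over the 8 libraries FLT1 had r of 0.22 to 0.43 to these 5 genes. Of the endothelial genes it passed the test by r only with SLC2A1, and by rho with 0. The pair of FLT1 and SLC2A1 had r = 0.821 and rho = 0.762 (exact permutation p = 0.0131, adjusted p = 0.0452 for r and 0.0973 for rho). Its r was 0.844 with all 9 libraries. Without Puberty 2 and the 2 libraries farthest from the FLT1 median, which narrows the range of FLT1, it was 0.165. With all 9 libraries FLT1 had r of 0.81 with PECAM1, 0.80 with CDH5, 0.77 with TEK, -0.77 with CLDN5 and -0.34 with VWF, and 0.90 with RGS5 (exact permutation adjusted p = 0.0287 for r and 0.156 for rho).

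The 3 mural pairs did not pass the test without Puberty 2. Their pairwise r over the 8 libraries was 0.59 for PDGFRB and RGS5, 0.59 for PDGFRB and ACTA2 and 0.49 for RGS5 and ACTA2, with exact permutation adjusted p of 0.217, 0.218 and 0.328, and with stage means subtracted it was 0.75, 0.63 and 0.77. With all 9 libraries PDGFRB and RGS5 had r = 0.984 and rho = 0.683 (exact permutation adjusted p = 0.0287 for r and 0.156 for rho). Without Postpuberty 1 as well as Puberty 2 (chosen after seeing the data), ACTA2 had r = -0.43 with PDGFRB and 0.19 with RGS5 over 7 libraries, so its positive r with PDGFRB rests on Postpuberty 1 and that with RGS5 is smaller without it. With the 7 endothelial genes the median r was 0.67 for ACTA2, 0.58 for RGS5 and 0.13 for PDGFRB over the 8 libraries, and 0.44, 0.83 and 0.77 over all 9. The differences between these values were not tested. Over the 8 libraries ACTA2 was close to CLDN5 (r = 0.845, rho = 0.881, exact permutation p = 0.00203, adjusted p = 0.0127 for r) and to CDH5 (r = 0.844, rho = 0.929, exact permutation p = 0.000546, adjusted p = 0.00818 for r). Without the 2 libraries farthest from the median of the endothelial gene these were 0.874 and 0.742, and without Postpuberty 1, where ACTA2 was highest, 0.842 and 0.791. With all 9 libraries they were 0.084 and 0.585. RGS5 was closest to SLC2A1 (r = 0.812, rho = 0.857, exact permutation p = 0.0186 and 0.0107, adjusted p = 0.0597 for r and 0.0402 for rho).

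Inclusion of Puberty 2 rearranged the pairs. CLDN5 turned from positive to negative r with PECAM1 (0.89 to -0.55), CDH5 (0.95 to -0.66), TEK (0.86 to -0.62), FLT1 (0.23 to -0.77), SLC2A1 (0.69 to -0.37), RGS5 (0.62 to -0.88) and PDGFRB (0.27 to -0.92), and stayed positive with VWF (0.77). VWF turned to an r near 0 with PECAM1 (0.95 to 0.06), CDH5 (0.93 to -0.10) and TEK (0.86 to -0.05). PDGFRB and RGS5 went from 0.59 to 0.98. With 9 libraries 14 of 45 pairs had an exact permutation adjusted p below 0.05 by r and 8 by rho, against 13 and 14 with 8 libraries.

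**Figure D4:**
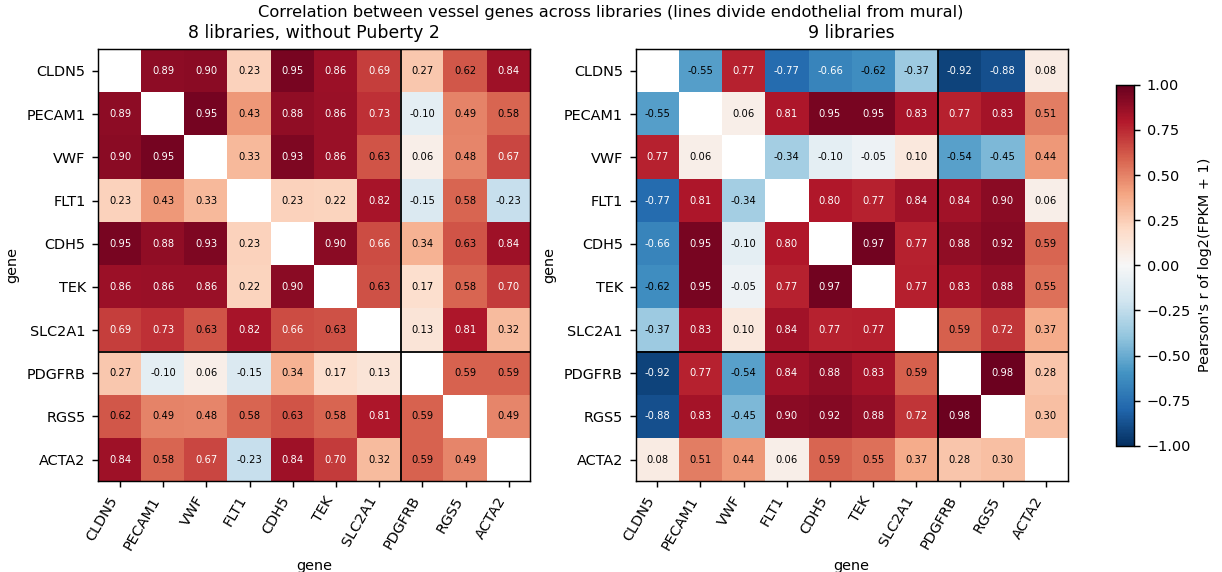
Pearson's r of log2(FPKM + 1) between each pair of the 10 genes, without Puberty 2 (left) and with all 9 libraries (right), in colour from -1 to 1 and as numbers. All endothelial pairs are positive on the left, and CLDN5 is negative to 7 genes on the right.

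As groups, the mean log2(FPKM + 1) of the endothelial genes and that of the mural genes had r = 0.595 and rho = 0.917 over 9 libraries and r = 0.689 and rho = 0.929 over 8, given without a p because they are scores over chosen genes. Without the 2 libraries farthest from the endothelial median, Prepuberty 1 and Prepuberty 2, r was 0.816 of 9 libraries and 0.883 of 8. With stage means subtracted it was 0.542 and 0.712. Taken separately, the mean of RGS5 and PDGFRB gave r = 0.438 with 9 libraries and 0.563 with 8, and ACTA2 gave 0.665 and 0.648. The split of the mural genes was chosen after seeing the data.

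Neuron genes had a negative median r with the vessel means. Across the 8 libraries the median r of the 8 neuron genes was -0.73 with the endothelial mean and -0.84 with the mural mean. Over all genes it was 0.03 and 0.09. With ACTA2 alone the neuron median was -0.81, and with the mean of RGS5 and PDGFRB it was -0.65, against 0.15 and -0.05 over all genes. With the endothelial mean SNAP25 had r = -0.92 and NEFL -0.37. The lowest neuron sums of the 8 libraries were in Postpuberty 1 (437 FPKM) and Prepuberty 1 (640 FPKM). These libraries had the highest endothelial means (4.23 and 4.45), and the r without them was not computed. Genes of oligodendrocytes (median 0.69), microglia (0.66) and fibroblasts (0.74) were positive to the endothelial mean, and those of astrocytes had 0.43. These correlations share libraries, and the part of cell composition in the agreement of the vessel genes was not tested.

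**Figure D5:**
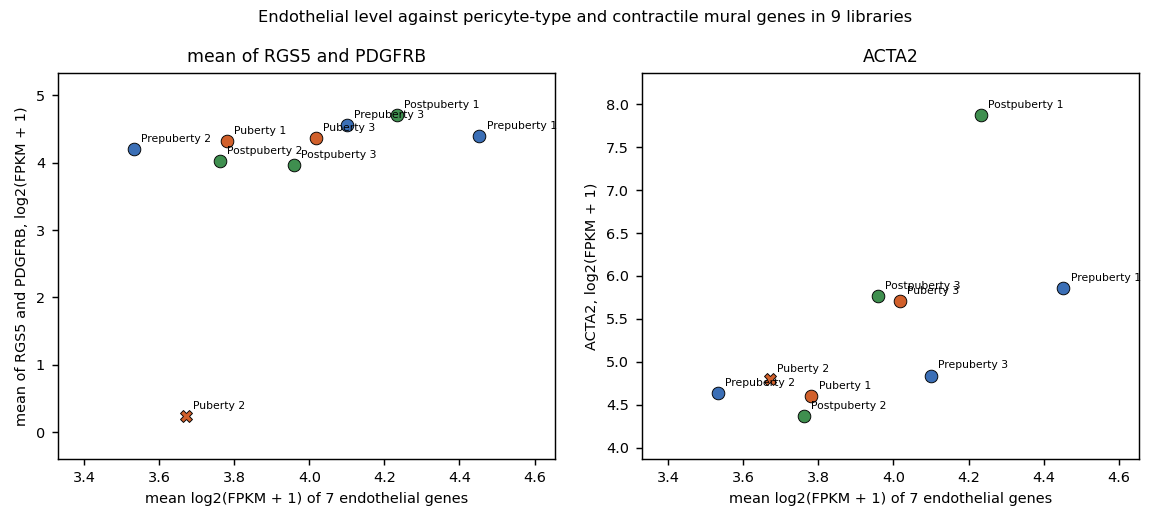
Mean log2(FPKM + 1) of the 7 endothelial genes (horizontal axes) against the mean of RGS5 and PDGFRB (left) and ACTA2 (right), also as log2(FPKM + 1), with 1 point per library coloured by stage. Puberty 2 (cross) lies far below the others on the left, and Postpuberty 1 far above on the right.

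Other genes of the vessel wall were read from lists of markers, and 0 of their genes passed the test in any comparison in either direction. Of 24 other pan-endothelial genes, 23 were in the table and 22 were kept, and 13 of the 20 with a mean of at least 1 FPKM (65%) had an r of at least 0.5 with the endothelial mean, against 26.0% of all genes. The highest of them by mean over the 9 libraries were RAMP2, a subunit of the adrenomedullin receptor (23.0 to 54.4 FPKM in the 8 libraries and 242 in Puberty 2), and S1PR1, a receptor for sphingosine 1-phosphate (29.7 to 61.0 and 19.8). RAMP2 had r = 0.97 with the endothelial mean and S1PR1 -0.0053. In the fits without Puberty 2 the list's median log2 difference was 0.10, 0.02 and 0.08 in the 3 comparisons.

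Barrier genes beyond the members had a median r with the endothelial mean of 0.48 for 8 junction genes and 0.48 for 9 barrier transporters. Among the junction genes r ran from -0.60 (CTNNB1) to 0.84 (F11R). The median was 0.71 for the pan-endothelial list and 0.03 over all genes. The differences between lists were not tested. The most abundant junction genes were CTNNB1, which encodes beta-catenin (32.4 to 50.3 FPKM in the 8 libraries), and TJP1, which encodes the scaffold ZO-1 (18.6 to 25.9). The transporter genes of highest mean over the 9 libraries were SLC3A2 (39.7 to 51.2 FPKM in the 8) and SLC7A5 (17.7 to 34.1), which encode the subunits of the large neutral amino acid transporter. Over the 8 libraries the efflux pump gene ABCG2 had a higher median than SLC7A5 (27.0 against 24.4 FPKM), and in Puberty 2 it was at 0.375 FPKM. Neurons and glia also express several of these genes. Of the genes kept for testing, 6 of 9 junction genes and 8 of 10 transporter genes were below all other libraries in Puberty 2, beside 51.9% of all genes kept.

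Of the pericyte genes other than the members, 8 had a mean of at least 1 FPKM. Their median r was 0.19 with the endothelial mean and 0.18 with the mural mean, against 0.03 and 0.09 over all genes, and 25% had an r of at least 0.5 with each, against 26.0% and 23.4% of all genes. MCAM, an adhesion molecule of pericytes and endothelium, had the highest mean over the 9 libraries, at 30.3 to 83.2 FPKM in the 8. HIGD1B came next by that mean through Puberty 2, with 4.90 to 10.6 FPKM in the 8 libraries and 44.7 in Puberty 2. Over the 8 libraries the next was NOTCH3, the Notch receptor of mural cells, at 8.93 to 14.9 FPKM, with r = 0.83 to the mural mean. ANPEP and VTN, both used as pericyte markers, did not exceed 0.711 and 0.0449 FPKM in the 8 libraries.

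The genes most like each group were ranked by r over the 8 libraries among 12271 others with a mean of at least 1 FPKM. For the endothelial mean they were YBX3 (0.993), WWTR1 (0.988), SHROOM1 (0.984), CLEC14A (0.984) and CLN8 (0.979), of which CLEC14A is an endothelial lectin. For the mural mean they were FLNA, LOC101122834 and MAP3K2 (each 0.981), CALD1 (0.980) and PKN2 (0.974), of which FLNA cross-links actin and CALD1 encodes the smooth muscle regulator caldesmon. FLNA followed ACTA2 in its extremes, at 58.1 FPKM in Postpuberty 1 and 10.96 to 25.9 in the other 7 libraries.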

How the data were processed

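RNA of 9 hypothalami was sequenced in paired-end libraries. Per the labels and the study's methods, reads were trimmed with Trimmomatic (0.32 in the submitters' processing notes), aligned with HISAT2 to ARS-UI_Ramb_v3.0, and assembled, merged and quantified with StringTie. The authors deposited 1 table of FPKM per transcript and library, described as raw counts but not whole numbers. FPKM does not keep depth, so precision was judged from the spread between animals. Stage and replicate came from the labels and ages from the study's table of animals.

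RefSeq transcripts (76682 of 76684 matched) were summed per gene. Stages were compared with limma 3.58.1 (R 4.3.3) on log2(FPKM + 1) with a variance trend, all 9 libraries in 1 fit, for the 14238 genes with a mean of at least 0.5 FPKM in 1 stage or more. No scaling between libraries was applied. P-values were adjusted by Benjamini-Hochberg over all genes, and the fit was tested on simulated data. Correlations used exact permutations over all pairings, computed with numpy 2.4.6 (Python 3.11.15). Members and lists were chosen with earlier results of these data known. The text names the 10 members, the 2 genes of highest mean FPKM in each marker list, called genes (there were 0) and the 5 genes most like each group. Others (the markers at or near 0, and genes given for their roles) were named after their values were seen. Alternatives covered scaling, filter, pseudocount, variance trend, replicate block, transcript choice and each library left out. Read counts and promoter sequences were not used here.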

Additional observations from a re-analysis of the deposited data

How the results depend on the processing

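The count of genes called stayed at 0 in all 3 comparisons under each of the 18 gene-level alternatives, and the members' smallest adjusted p in limma over them was 0.516. Of 510 member differences under an alternative, 39 took the other sign, and 0 passed the thresholds. With each library left out in turn, the log2 differences between prepuberty and puberty ranged from -1.56 to 0.11 for CLDN5, -0.65 to 0.066 for VWF, -0.088 to 1.55 for PDGFRB and -0.30 to 0.41 for ACTA2. Between puberty and postpuberty they ranged from -0.23 to 1.44 for CLDN5, -0.070 to 0.42 for VWF, -0.55 to 0.14 for FLT1, -1.61 to 0.032 for PDGFRB and -2.34 to 0.20 for RGS5. Between prepuberty and postpuberty they ranged from -0.33 to 0.13 for CLDN5, -0.26 to 0.39 for PECAM1, -0.44 to 0.28 for VWF, -0.31 to 0.12 for CDH5, -0.23 to 0.19 for TEK, -0.14 to 0.093 for PDGFRB and -1.71 to 0.044 for ACTA2. With the most abundant transcript in place of the sum, FLT1 had -0.98 between prepuberty and puberty and 1.53 between puberty and postpuberty, and between prepuberty and postpuberty PECAM1 had -0.49, TEK -0.0042 and PDGFRB 0.042. With equal library totals and without Puberty 2 (chosen after seeing the data), the prepuberty to puberty differences were 0.13 for CLDN5, 0.011 for VWF, -0.068 for PDGFRB and -0.023 for ACTA2, and the puberty to postpuberty differences were -0.22 for CLDN5, -0.054 for VWF, 0.16 for FLT1, 0.049 for PDGFRB and 0.21 for RGS5. Equal totals with 9 libraries shifted the median gene to 0.28, -0.30 and -0.02. The r of endothelial against mural means was 0.850 with equal totals, 0.411 with quantile normalization and 0.438 with RGS5 and PDGFRB as the mural mean, and 0.511 to 0.698 with 1 library left out. Without Puberty 2, 1 member separated prepuberty from puberty, beside 11.7% of all genes. The causes of these shifts were not tested.

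Deviations of same-numbered animals had no common sign (r of -0.315 to 0.515 over 9 pairs). The highest r was that of Prepuberty 2 with Postpuberty 2. The replicate numbers were not used to pair animals in the main fit. With a replicate block 0 genes were called, and 281, 327 and 103 genes had an unadjusted p below 0.05, against 259, 305 and 116 without it.

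The standard errors rest on the spread between the 3 animals per stage, since counting error cannot be separated from it in FPKM. Leaving out Puberty 2 narrowed the standard errors of RGS5 (1.15 to 0.34) and PDGFRB (0.75 to 0.18) and widened that of ACTA2 (0.78 to 0.94) between prepuberty and puberty.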

Other observations

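Genes of arteries, veins and fenestrated capillaries were present in part. Of 8 arterial endothelial genes, the most abundant were SEMA3G, a secreted semaphorin (19.2 to 25.9 FPKM in the 8 libraries other than Puberty 2), and HEY1, a transcription factor downstream of Notch (8.27 to 12.01). Their median r with the endothelial mean was 0.32. Of 8 genes of veins and fenestrated capillaries 7 were in the table. The highest by mean over the 9 libraries were NR2F2, a nuclear receptor of venous endothelium (2.11 to 7.71 FPKM in the 8), and PLVAP (0.797 to 6.58). PLVAP encodes the protein of the diaphragms that span fenestrae. Over the 8 libraries PLVAP had the higher median of these 2 genes (5.82 against 4.95 FPKM). Of the other genes of this list, ACKR1, SELP and SELE did not exceed 0.47, 0.23 and 0.027 FPKM in the 8 libraries, while the adhesion gene ICAM1 ranged from 1.33 to 8.87 FPKM and EPHB4 from 1.88 to 3.79. PLVAP was lowest in Postpuberty 3, and no gene of either list passed the test in a comparison.

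Among 15 ligands and receptors of vessel growth, VEGFB was the most abundant (23.8 to 49.9 FPKM in the 8 libraries and 148 in Puberty 2), followed by KDR, VEGF receptor 2 (6.83 to 13.8 and 3.88). VEGFA did not exceed 2.89 FPKM in the 8 libraries and was listed at 0 in Puberty 2. KDR, which encodes the main signalling receptor for VEGFA in endothelium, had r = 0.88 with the endothelial mean, and the list had a median of 0.31. In Puberty 2, 8 of the 14 genes kept were below all other libraries and 2 were above them, beside 51.9% and 20.2% of all genes kept.

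Marker genes of other cells and tissues also differed between animals of the same stage. PRL, a pituitary hormone gene, ranged from 0.0562 to 200 FPKM in the 8 libraries (2.65 in Puberty 2) and LHB from 0 to 4.97 (10.9 in Puberty 2). CRH and TRH, which encode hypothalamic releasing hormones, reached 118 FPKM in Prepuberty 1 and 36.8 FPKM in Postpuberty 3. The erythrocyte gene HBB did not exceed 5.07 FPKM in the 8 libraries and was 10.4 FPKM in Puberty 2, with CA1 at or under 0.240 FPKM. The microglial genes C1QB and CSF1R ranged from 16.4 to 161 and from 21.3 to 93.1 FPKM.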
